A study of Mus musculus with 8 samples.

Results

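The 10 genes described here are the 3 GADD45 genes (Gadd45a, Gadd45b and Gadd45g), Map3k4 and 6 dual-specificity phosphatase genes (Dusp1, Dusp2, Dusp4, Dusp5, Dusp6 and Dusp10). They were chosen by name, with earlier results of these data known, and all 10 were found among the 54146 genes of the files. All 10 also passed the filter on low counts that left 14791 genes for testing. Their RNA was measured by RNA-seq in EL4, a mouse T cell lymphoma line, after stimulation with the phorbol ester PMA (50 ng/ml) and the calcium ionophore ionomycin (1 μM) for 4 h. The GFP + Plum line expressed the control fluorescent proteins GFP and Plum and no introduced transcription factor. The T-bet + Plum line expressed FLAG-tagged T-bet, the factor that directs TH1 differentiation. The GFP + GATA3 line expressed HA-tagged GATA3, the factor that directs TH2 differentiation, and the T-bet + GATA3 line expressed both. There were 2 libraries for each of the 4 lines. All 8 libraries came from stimulated cells, so induction by PMA and ionomycin was not measured. EL4 cells express Gata3 of their own, so the lines without introduced GATA3 are not free of GATA3. The study treats harvests of a single line on different days as its replicates, so a factor and the history of the line that carries it cannot be told apart, and p-values measure the spread between such harvests. In bulk RNA, fewer cells of a type and less RNA per cell cannot be told apart.

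MAP kinases relay signals from the T cell receptor through a cascade in which a MAP3 kinase phosphorylates a MAP2 kinase, which phosphorylates a MAP kinase such as ERK, JNK or p38. GADD45 proteins bind and activate the MAP3 kinase encoded by Map3k4, and so feed into p38 and JNK. In TH1 cells GADD45β and GADD45γ are known to promote production of IFNγ through p38, whereas GADD45α restrains an alternative route to p38 activation in T cells. Dual-specificity phosphatases remove the phosphates from the activating threonine and tyrosine of MAP kinases. Many of them are induced by the kinases that they switch off, and so form negative feedback. Dusp1, Dusp2, Dusp4 and Dusp5 encode nuclear enzymes, Dusp6 encodes a cytoplasmic enzyme that acts on ERK, and Dusp10 encodes an enzyme that prefers JNK and p38.

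The libraries held 8038284 to 16003190 counts. Tbx21, which encodes T-bet, stood at 128.7 to 160.1 CPM (counts scaled to a common library size) in the 4 libraries with T-bet and at 1.78 to 3.59 in the other 4. Gata3 stood at 164.9 to 325.6 CPM where GATA3 was introduced and at 25.8 to 53.3 elsewhere. Gata3 reached at most 203.7 CPM in the libraries with T-bet and 325.6 in those without, and the part of this in the results was not tested. Ifng stood at 2788 to 3970 CPM with T-bet and at 0.186 to 0.698 without it. All 9 T cell markers were tested, and their summed level was 1813 to 2228 CPM with T-bet and 1945 to 2355 without. Of these 9, 3 were called higher and 1 lower with T-bet, over both T-bet effects as in T-bet + Plum versus GFP + Plum, and their part in the results was not tested. The 5 fibroblast or epithelial markers summed to at most 0.433 CPM, with Epcam and Krt8 at 0. The 5 myeloid markers summed to 2.38 to 3.98 CPM with T-bet and 2.79 to 4.33 without. Of the 3 myeloid markers tested, Lyz2, named after its values were seen, passed in the comparison of lines with and without T-bet. It stood at 0.0665 to 0.137 CPM with T-bet and 0.574 to 0.761 without. The values with T-bet lie below the level of 3 counts (0.188 to 0.373 CPM). The part of Lyz2 in the results was not tested.

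Promoter sequence was matched for 9 of the 10 genes in RefSeq (GRCm38.p6), all but Dusp4. The 3 promoters printed belong to Dusp2 and Dusp5, the genes called in every T-bet contrast below, and to Dusp1, which holds both a CRE and an E-box. Each is printed 5′ to 3′ on the gene's strand up to the outermost start of the gene's deposited transcripts, at chr2:127335909-127336158 on the plus strand for Dusp2, chr19:53528895-53529108 on the plus strand for Dusp5 and chr17:26508520-26508722 on the minus strand for Dusp1. Capitals mark an E-box in Dusp2, adjoining CArG boxes in Dusp5, and a CRE and an E-box in Dusp1.
Dusp2: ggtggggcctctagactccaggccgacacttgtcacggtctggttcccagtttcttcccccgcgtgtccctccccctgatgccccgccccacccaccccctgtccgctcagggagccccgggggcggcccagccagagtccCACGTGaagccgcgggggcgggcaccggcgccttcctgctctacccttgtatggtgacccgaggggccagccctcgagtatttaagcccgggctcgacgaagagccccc
Dusp5: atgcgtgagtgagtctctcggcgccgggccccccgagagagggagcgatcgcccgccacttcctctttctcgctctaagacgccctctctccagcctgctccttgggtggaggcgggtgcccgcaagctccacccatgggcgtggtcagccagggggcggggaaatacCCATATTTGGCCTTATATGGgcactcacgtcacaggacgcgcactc
Dusp1: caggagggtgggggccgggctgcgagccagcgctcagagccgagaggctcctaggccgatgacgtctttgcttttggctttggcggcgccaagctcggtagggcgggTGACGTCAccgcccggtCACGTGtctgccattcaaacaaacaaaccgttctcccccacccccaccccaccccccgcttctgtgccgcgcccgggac
Motifs were searched on both strands in the 250 bases before each RefSeq start, in 32851 promoters of 27025 genes. The CArG box, the sequence read by SRF, matched the Dusp5 promoter at 82 and at 72 bases before the start, and 1.47% of all promoters held a match. The E-box CACGTG was found in Dusp1, Dusp2, Gadd45b and Gadd45g, 4 of the 9 promoters, and in 6.02% of all. The CRE TGACGTCA was found in Dusp1, and in 1.55% of all. The CCAAT box was found in Gadd45a, Gadd45b, Gadd45g, Dusp6 and Dusp10, and in 33.8% of all. The T-box half-site GGTGTGA (3.33% of all), the GATA motif AGATAA (9.99%) and the AP-1 motif TGANTCA (6.75%) were not found in the 9 windows. The CRE and the E-box do not overlap each other in Dusp1. These matches describe letters in a window and say nothing of binding.

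The levels of the 10 genes were compared with each other in TPM, which is per length. Dusp2 was the highest of the 10 in every line, with 246.1 ± 66.4 TPM (mean ± SD, n = 2) in GFP + Plum, 871 ± 2.74 in T-bet + Plum, 172.7 ± 18.4 in GFP + GATA3 and 716 ± 115 in T-bet + GATA3. These levels lay at the 97.1, 99.0, 95.2 and 99.0 percentile of the protein-coding genes tested. Dusp6 was second in every line, from 90.4 ± 45.9 TPM in T-bet + GATA3 to 183.1 ± 33.1 in GFP + Plum. The library values of Dusp2 and Dusp6 overlapped in GFP + Plum and in GFP + GATA3, and were apart in both T-bet lines. Dusp10, at 2.29 to 4.89 TPM as line means, and Dusp1, at 0.492 to 2.42, were the lowest of the 10 in every line. The other 6 lay between, from 8.32 TPM for Dusp5 in GFP + GATA3 to 83.2 for Dusp4 in the same line.

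**Figure D1:**
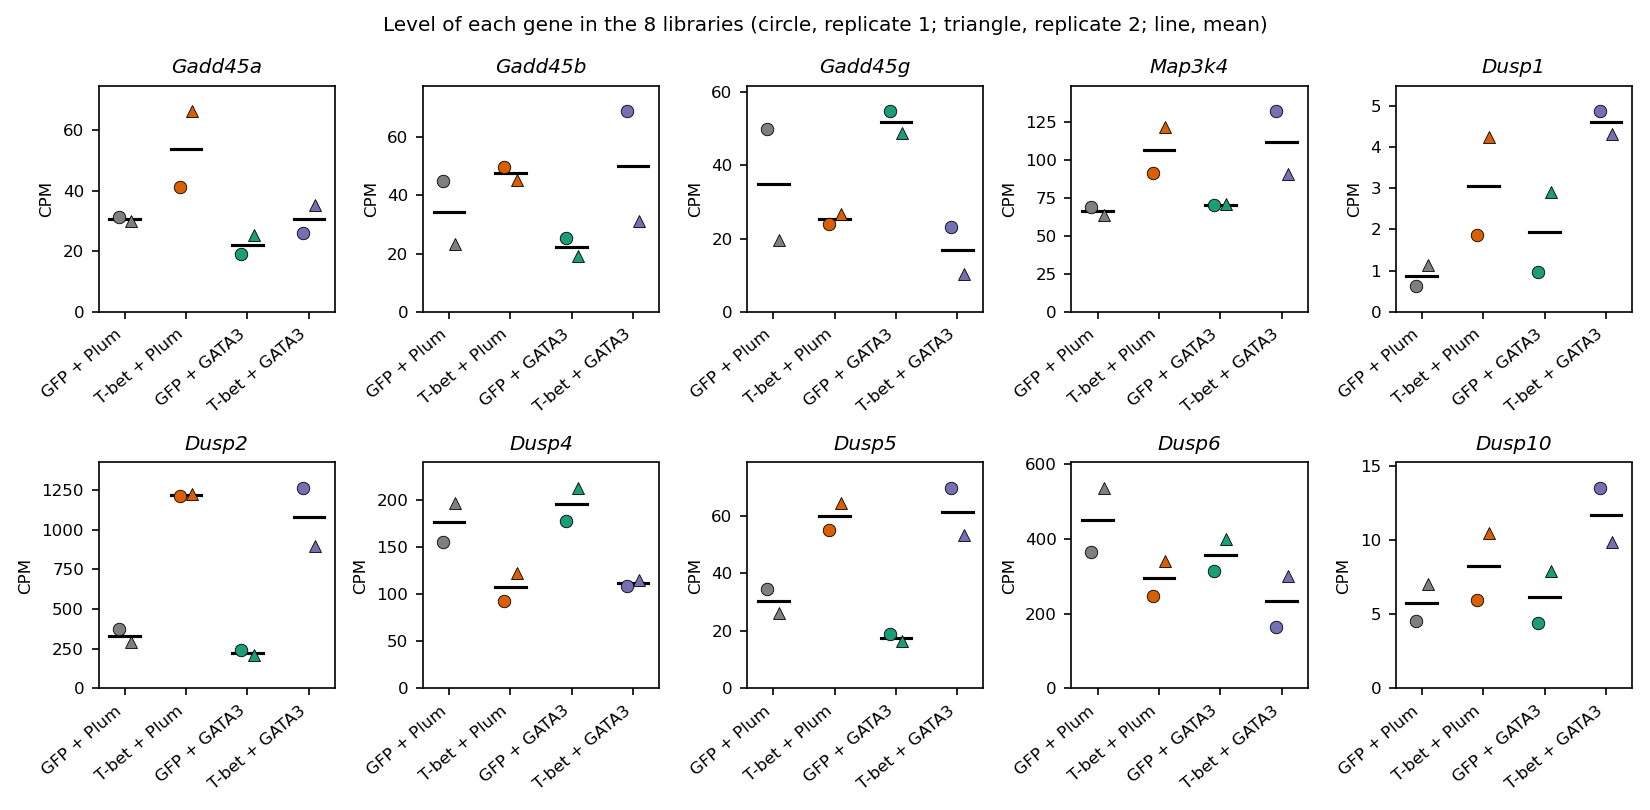
CPM of each gene (y axis, from 0) in the 4 lines (x axis). Circles are replicate 1, triangles replicate 2 and lines the mean of both. All 4 T-bet libraries lie above the other 4 for Dusp2, Dusp5 and Map3k4, and below them for Dusp4.

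The question of the design was how T-bet and GATA3 act alone and together. With the 4 libraries of the T-bet lines set against the other 4, 6 of the 10 genes passed an FDR of 0.05 (edgeR's quasi-likelihood test, adjusted over all genes), 5 higher and 1 lower with T-bet. Of all genes tested, 15.2% passed, 8.55% higher and 6.61% lower. All 10 genes had an unadjusted p below 0.05, as did 29.2% of all genes. Past an added limit of 1.5 on the size of the log2 fold change there were 2 of the 10, Dusp1 and Dusp2, and 4.50% of all genes. The median log2 fold change was 0.69 over the 10 genes and 0.02 over all genes. Since the 10 genes were chosen with earlier results of these data known, their counts beside these shares are descriptions. Dusp2, Dusp5, Map3k4, Dusp1 and Gadd45a rose and Dusp4 fell. Gadd45b, Gadd45g, Dusp6 and Dusp10 did not pass in any contrast in edgeR, whereas DESeq2 called 9 of the 10 in this comparison, Gadd45b, Gadd45g and Dusp6 among them. The share of all genes that DESeq2 called is not given here, so its count is not set against a background. Without GFP + GATA3 replicate 1, or without T-bet + Plum replicate 2, 3 of the 10 passed, namely Dusp2, Dusp4 and Dusp5.

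Dusp2 (ENSMUSG00000027368.6, chromosome 2, 127336159 to 127338376, plus strand, GRCm38) encodes a nuclear phosphatase that is induced in activated T cells. It stood at 375 and 289 CPM in GFP + Plum, 1212 and 1225 in T-bet + Plum, 242 and 208 in GFP + GATA3, and 1264 and 893 in T-bet + GATA3. The lowest T-bet library was thus well above the highest library without T-bet, and the groups did not overlap. Dusp2 rose 3.67-fold in T-bet + Plum over GFP + Plum (log2 fold change 1.88, SE 0.20, edgeR FDR 0.0017) and 4.80-fold in T-bet + GATA3 over GFP + GATA3 (2.26, SE 0.20, FDR 0.000789). Over both, the rise was 4.20-fold (2.07, SE 0.14, FDR 9.11e-05). Protein-coding transcripts held 91.9% to 93.9% of Dusp2 TPM in every library. The E-box printed above lies 109 bases before the start of this gene.

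Dusp5 (ENSMUSG00000034765.6, chromosome 19, 53529109 to 53542431, plus strand) encodes a nuclear phosphatase specific for ERK. Its values were 34.4 and 26.3 CPM in GFP + Plum, 55.3 and 64.4 in T-bet + Plum, 18.9 and 16.4 in GFP + GATA3, and 69.9 and 53.2 in T-bet + GATA3. Every T-bet library was higher than every library without T-bet, and the 2 lowest values were those of GFP + GATA3. Dusp5 rose 1.97-fold in T-bet + Plum over GFP + Plum (log2 fold change 0.98, SE 0.19, edgeR FDR 0.0238) and 3.49-fold in T-bet + GATA3 over GFP + GATA3 (1.81, SE 0.20, FDR 0.00214). The pooled rise was 2.63-fold (1.39, SE 0.14, FDR 0.000516). The call for T-bet + Plum over GFP + Plum was lost without T-bet + Plum replicate 1 (FDR 0.0716), without T-bet + Plum replicate 2 (0.169) or without GFP + Plum replicate 2 (0.103), against a range of 2.93e-05 to 0.169 over all alternatives.

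Dusp4 (ENSMUSG00000031530.6, chromosome 8, 34807297 to 34819894, plus strand) encodes a nuclear phosphatase of ERK, JNK and p38. It stood at 155.6 and 196.9 CPM in GFP + Plum, 92.7 and 122.3 in T-bet + Plum, 178.0 and 213.3 in GFP + GATA3, and 108.6 and 114.8 in T-bet + GATA3. Here the order was the opposite of that of Dusp2, with all 4 T-bet libraries below the other 4. Dusp4 was 1.69-fold lower with T-bet (log2 fold change -0.76, SE 0.13, edgeR FDR 0.00587). In T-bet + GATA3 against GFP + GATA3 it was 1.75-fold lower (-0.81, SE 0.18, FDR 0.0375), and the FDR rose to between 0.0902 and 0.256 when any of the 4 libraries of that contrast was left out (range over all alternatives 0.000102 to 0.256). In T-bet + Plum against GFP + Plum the value was -0.71 (SE 0.18, edgeR FDR 0.0598). That contrast passed for Dusp4 in DESeq2, with library size scaling, without a filter on low counts and with the replicate number as a block. It did not pass with transcript length offsets, with at least 10 counts in every library or with the libraries of the contrast alone. The T-bet effect differed with GATA3 by -0.10 on the log2 scale (SE 0.25), which was not called.

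Dusp1 (ENSMUSG00000024190.6, chromosome 17, minus strand, its deposited transcripts spanning 26505590 to 26508519) encodes a nuclear phosphatase of p38 and JNK and is a textbook immediate early gene. It had few counts, namely 10 and 18 in GFP + Plum, 15 and 62 in T-bet + Plum, 10 and 46 in GFP + GATA3, and 45 and 65 in T-bet + GATA3. On normalized library sizes these were 0.619 and 1.14, 1.87 and 4.24, 0.957 and 2.92, and 4.87 and 4.32 CPM. The groups with and without T-bet overlapped, since GFP + GATA3 replicate 2 exceeded T-bet + Plum replicate 1. Dusp1 was 2.85-fold higher with T-bet (log2 fold change 1.51, SE 0.41, edgeR FDR 0.0444). That call held without T-bet + Plum replicate 1 or GFP + GATA3 replicate 2, and was lost without any of the other 6 libraries, with FDR values of up to 0.197 (range over all alternatives 1.62e-05 to 0.197).

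Dusp6 (ENSMUSG00000019960.8, chromosome 10, 99263231 to 99267489, plus strand) stood at 364.6 and 537.4 CPM in GFP + Plum, 247.3 and 342.0 in T-bet + Plum, 313.6 and 398.8 in GFP + GATA3, and 164.3 and 301.6 in T-bet + GATA3. T-bet + Plum replicate 2 lay above GFP + GATA3 replicate 1, so over all 8 libraries the groups overlapped. Replicate 2 was the higher in every line. Among libraries of the same replicate number, those with T-bet were lower, though the labels do not say that a number marks a shared day. The pooled value was -0.61 (SE 0.22, edgeR FDR 0.107) and did not pass. With the replicate number as a block its edgeR FDR was 0.00366. It passed in DESeq2 (FDR 0.0154), without a filter on low counts and without T-bet + GATA3 replicate 2 (0.0261), within a range of 2.3e-06 to 0.29 over all alternatives. Dusp10 (ENSMUSG00000039384.8, chromosome 1, 184013302 to 184075636, plus strand) ranged from 4.40 to 7.93 CPM without T-bet and from 5.97 to 13.5 with it, and its pooled value was 0.71 (SE 0.28, edgeR FDR 0.13).

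**Figure D2:**
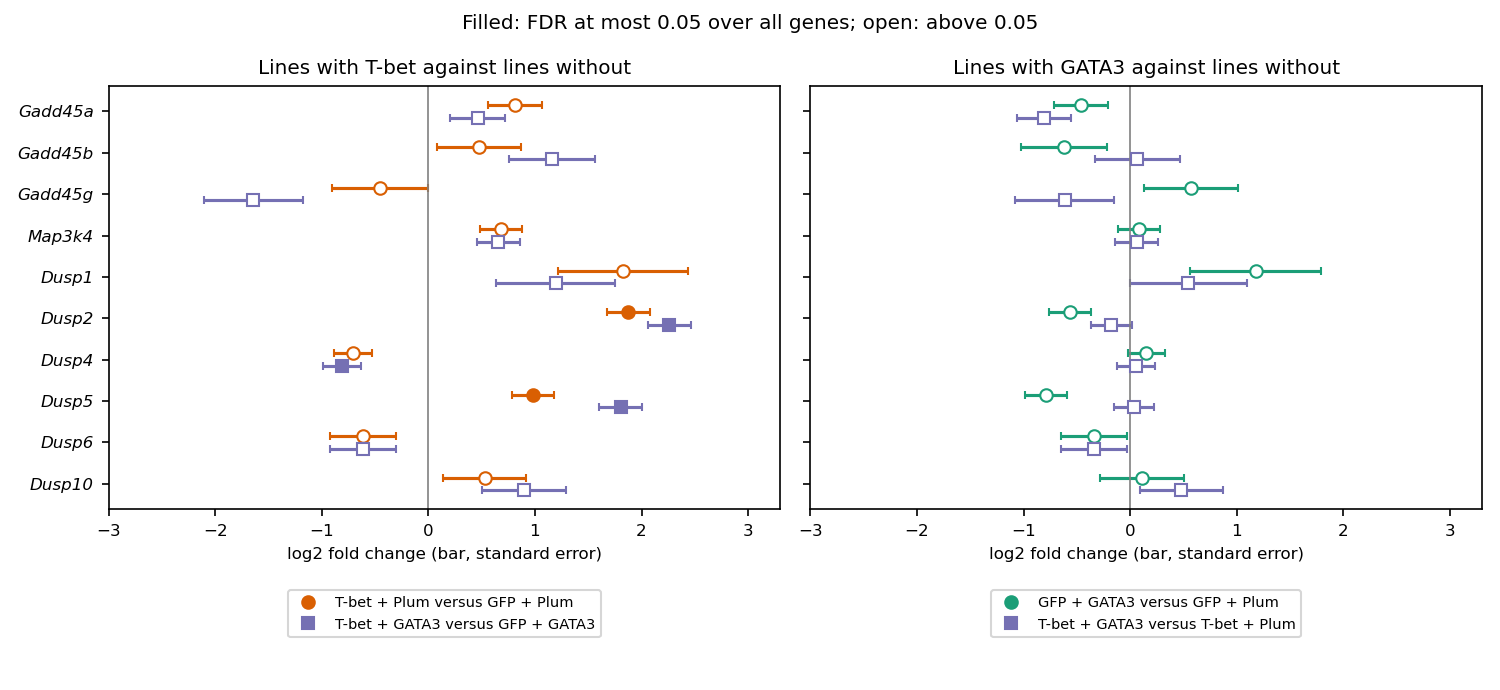
log2 fold change of each gene (x axis, bars are standard errors) for T-bet without and with introduced GATA3 on the left, and for GATA3 without and with T-bet on the right. Filled symbols have an FDR of at most 0.05, which Dusp2 and Dusp5 reach in both T-bet contrasts, Dusp4 where T-bet was added to GATA3, and no gene in the GATA3 contrasts.

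Of the GADD45 genes, Gadd45a (ENSMUSG00000036390.8, chromosome 6, 67035096 to 67037457, minus strand), a p53 target known for growth arrest, stood at 31.2 and 30.1 CPM in GFP + Plum, 41.2 and 66.3 in T-bet + Plum, 19.1 and 25.4 in GFP + GATA3, and 26.0 and 35.3 in T-bet + GATA3. The T-bet + Plum libraries were the 2 highest, and those of T-bet + GATA3 lay on both sides of the GFP + Plum values. The pooled value was 0.64 (SE 0.18, edgeR FDR 0.0498), a rise that only just passed. It did not pass with library size scaling (edgeR FDR 0.0699) or with transcript length offsets (0.0585). The call held without T-bet + Plum replicate 1 and was lost without any of the other 7 libraries, with FDR values of up to 0.164 (range over all alternatives 0.000152 to 0.164). Transcripts annotated as retained introns held 54.6% to 71.2% of Gadd45a counts. The protein-coding transcripts of Gadd45a alone ranged from 8.25 to 31.4 TPM with T-bet and from 9.28 to 17.3 without, and overlapped. E230016M11Rik lies on the opposite strand of this gene and had 193 counts over the 8 libraries against 3650 for Gadd45a. Opposite-strand genes also overlap Dusp5 (AC137853.2), Map3k4 (AC136921.1 and Gm24794) and Dusp10 (1700056E22Rik). Of these, 1700056E22Rik had 5 counts and Gm24794 had 0, and no count is given for the other genes. Whether counting used strand is not given in the sources used here.

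Gadd45b (ENSMUSG00000015312.9, chromosome 10, 80930073 to 80932204, plus strand), which activates p38 signalling in TH1 cells, stood at 44.9 and 23.3 CPM in GFP + Plum, 49.7 and 45.3 in T-bet + Plum, 25.4 and 19.2 in GFP + GATA3, and 68.8 and 31.2 in T-bet + GATA3. Its 2 libraries differed 1.93-fold in GFP + Plum and 2.21-fold in T-bet + GATA3, and over all 8 libraries the groups overlapped. Replicate 2 was the lower in every line. Among libraries of the same replicate number, those with T-bet were higher, though the labels do not say that a number marks a shared day. The pooled value was 0.82 (SE 0.28, edgeR FDR 0.0954), and its edgeR FDR was 0.0125 with the replicate number as a block. It passed in DESeq2 (FDR 0.0135), without a filter on low counts, without GFP + Plum replicate 1 (0.0343) or without T-bet + GATA3 replicate 2 (0.0276), within a range of 1.9e-07 to 0.289 over all alternatives.

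Gadd45g (ENSMUSG00000021453.2, chromosome 13, 51846678 to 51848468, plus strand), which like Gadd45b promotes production of IFNγ, stood at 49.9 and 19.7 CPM in GFP + Plum, 24.0 and 26.7 in T-bet + Plum, 54.8 and 48.8 in GFP + GATA3, and 23.3 and 10.4 in T-bet + GATA3. Of the 4 libraries without T-bet, 3 were at 48.8 CPM or above, and the other, GFP + Plum replicate 2, lay among the T-bet libraries. The pooled value was -1.05 (SE 0.32, edgeR FDR 0.0651), opposite in sign to that of Gadd45b. With the replicate number as a block its edgeR FDR was 0.024. It passed in DESeq2 (FDR 0.0021), without a filter on low counts, without GFP + Plum replicate 2 (0.0115) or without T-bet + GATA3 replicate 1 (0.0345), within a range of 7.69e-12 to 0.178 over all alternatives.

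Map3k4 (ENSMUSG00000014426.8, chromosome 17, 12227621 to 12318796, minus strand), the MAP3 kinase that GADD45 proteins activate, stood at 69.5 and 64.1 CPM in GFP + Plum, 91.8 and 122.1 in T-bet + Plum, 70.2 and 71.3 in GFP + GATA3, and 132.5 and 91.2 in T-bet + GATA3. The 4 libraries without T-bet lay close together, and all 4 T-bet libraries were higher. Map3k4 rose 1.59-fold over both T-bet effects (log2 fold change 0.67, SE 0.14, edgeR FDR 0.0163). The FDR was 0.058 and 0.0608 without GFP + GATA3 replicate 1 or 2 and 0.0661 without T-bet + Plum replicate 2, in a range of 4.73e-06 to 0.0661 over all alternatives. The positions of Dusp1 and Map3k4 come from a later version of the gene model than the deposited counts, and in it Dusp1 reaches to 26562128.

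Of the 10 genes, the libraries with T-bet were all higher for 3 (Map3k4, Dusp2 and Dusp5), and 12.5% of all genes tested showed this. They were all lower for Dusp4 alone, as for 10.2% of all genes.

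In the single contrasts, T-bet + Plum versus GFP + Plum called 2 of the 10, Dusp2 and Dusp5, where 6.20% of all genes passed. T-bet + GATA3 versus GFP + GATA3 called 3, Dusp2, Dusp5 and Dusp4, where 5.77% passed. In DESeq2 the latter contrast also called Map3k4, Gadd45b and Gadd45g. With both factors against neither, 2 of the 10 passed where 4.87% of all genes did. These were Dusp2, 3.25-fold higher (log2 fold change 1.70, SE 0.20, edgeR FDR 0.00283), and Dusp5, 2.02-fold higher (1.02, SE 0.19, FDR 0.023). The Dusp5 call was lost without T-bet + GATA3 replicate 1 (FDR 0.14) or GFP + Plum replicate 2 (0.095), in a range of 8.21e-06 to 0.14 over all alternatives. With the added limit of 1.5, Dusp2 alone was left for T-bet + Plum versus GFP + Plum (3.02% of all genes) and for both factors against neither (2.61%), and Dusp2 and Dusp5 for T-bet in the presence of GATA3 (2.85%). The contrasts against GFP + Plum share those 2 libraries.

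GATA3 alone, in GFP + GATA3 versus GFP + Plum, called 0 of the 10 by edgeR and 0 by DESeq2, where 0.0203% of all genes passed. Of the 10, 2 had an unadjusted p below 0.05, as did 3.70% of all genes. These were Dusp5, with a log2 fold change of -0.79 (SE 0.20, edgeR FDR 0.615), and Dusp2, with -0.56 (SE 0.20, FDR 1). In the T-bet lines the same addition of GATA3 gave 0.04 for Dusp5 (SE 0.19) and -0.18 for Dusp2 (SE 0.19), both with an FDR of 1. T-bet + GATA3 versus T-bet + Plum called 0 of the 10 by edgeR and 0 by DESeq2, where 0.0338% passed. There, 1 of the 10 had an unadjusted p below 0.05, as did 3.78% of all genes. This was Gadd45a at -0.81 (SE 0.25, edgeR FDR 1). Over both GATA3 effects 0 of the 10 passed by either tool, where 0.0608% of all genes did, and 3 had an unadjusted p below 0.05, as did 4.96% of all genes. Gadd45a had the largest of these 3 values, -0.64 (SE 0.18, edgeR FDR 0.606), followed by Dusp5 (-0.38, SE 0.14) and Dusp2 (-0.37, SE 0.14).

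Whether the T-bet effect differed with introduced GATA3 was tested as an interaction. It called 0 of the 10 by edgeR and 0 by DESeq2, and 0% of all genes tested. Of the 10, 1 had an unadjusted p below 0.05, as did 2.58% of all genes. This was Dusp5, whose T-bet effect was larger with GATA3 by 0.82 on the log2 scale (SE 0.27, edgeR FDR 1). For Dusp2 the difference was 0.39 (SE 0.28, FDR 1), and for Gadd45g -1.19 (SE 0.64, FDR 1). The standard errors of the interaction ran from 0.25 for Dusp4 to 0.82 for Dusp1.

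Both the sum of phosphatase RNA and its mix stood apart between the libraries with and without T-bet. Summed TPM of the 6 phosphatases was 833.3 to 1090 with T-bet and 404.9 to 538.9 without. Dusp2 held 76.2% to 85.9% of that sum with T-bet and 36.7% to 54.4% without. Dusp6 held 6.23% to 14.7% with T-bet and 29.6% to 41.6% without, and Dusp4 held 3.57% to 5.47% and 12.5% to 20.9%. None of these ranges overlapped, whereas the shares of Dusp5 (2.36% to 2.94% and 1.78% to 3.07%), Dusp10 and Dusp1 did. Shares are parts of the same sum, so a higher share of Dusp2 lowers those of the others. In TPM itself Dusp6 overlapped, at 57.9 to 133.5 with T-bet and 132.5 to 206.4 without. Dusp4 did not, at 36.8 to 48.2 and 67.3 to 91.0. The TPM ratio of Dusp2 to Dusp4 was 13.9 to 23.6 with T-bet and 1.76 to 4.35 without. For the GADD45 genes the sum overlapped, at 90.7 to 166.3 TPM with T-bet and 84.0 to 157.1 without. The share of Gadd45g was 12.3% to 20.3% with T-bet and 24.3% to 52.3% without, and these ranges did not overlap. Those of Gadd45a (27.4% to 57.1% with T-bet and 25.5% to 50.1% without) and Gadd45b (26.4% to 52.3% and 16.7% to 30.0%) did. The ratio of Gadd45b to Gadd45g was 1.55 to 2.58 with T-bet and 0.335 to 1.05 without, whereas that of Gadd45a to Gadd45g overlapped, at 1.35 to 4.64 and 0.487 to 2.06. These shares and ratios are descriptions, with no test.

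**Figure D3:**
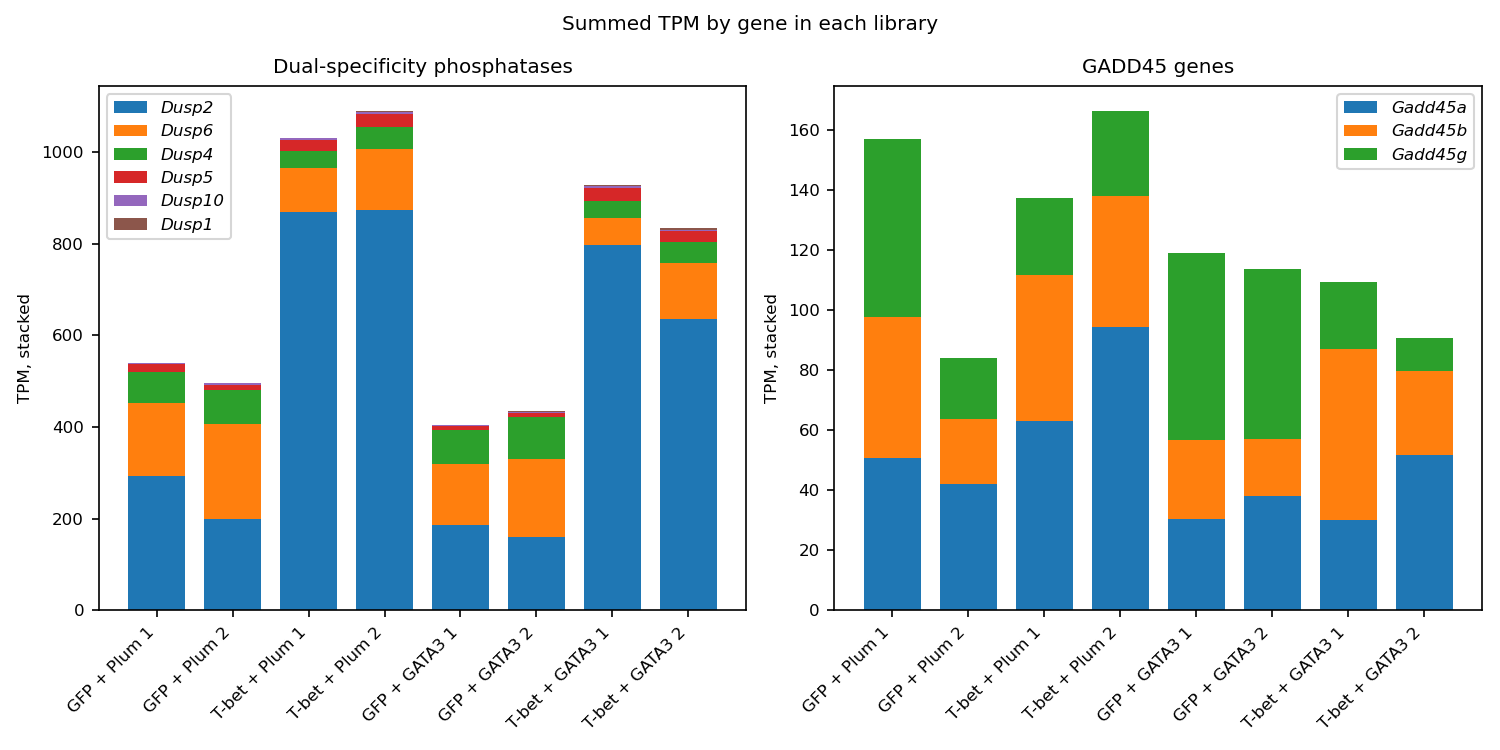
Stacked TPM (y axis, from 0) of the 6 phosphatase genes on the left and the 3 GADD45 genes on the right, for each of the 8 libraries (x axis). The phosphatase stacks reach 833.3 to 1090 TPM with T-bet and 404.9 to 538.9 without, mostly through the Dusp2 segment, and the GADD45 stacks overlap.

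The rest of the pathway was described with 10 lists of 90 genes, of which 75 were tested. In the pooled T-bet contrast 22 of the 75 passed, 13 higher and 9 lower, which is 29.3% against 15.2% of all genes. Their median log2 fold change was -0.01. Among phosphatases, Dusp14 rose, from 0.928 to 3.04 CPM without T-bet to 5.99 to 10.1 with it (log2 fold change 2.22, SE 0.34, edgeR FDR 0.00401), and Dusp16, whose product acts on JNK and p38, fell (-0.88, SE 0.21, FDR 0.0247). Dusp14 was 1 of 8 atypical phosphatases tested, and Dusp16 was 1 of 2 other MAP kinase phosphatases tested.

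Of the 11 other MAP3 kinases tested, 2 rose and 3 fell. Map3k5, which encodes the stress-activated kinase ASK1, rose from 79.5 to 107.2 CPM without T-bet to 208.7 to 278.1 with it (1.36, SE 0.12, edgeR FDR 0.000246). Map3k8, which feeds into ERK, also rose (1.01), while Map3k12 (-0.75), Map3k1 (-0.72) and Braf (-0.46) fell. None of the 6 MAP2 kinases tested passed in edgeR or DESeq2, and 1 had an unadjusted p below 0.05, as did 29.2% of all genes. Of 7 MAP kinases, Mapk14, which encodes p38α, rose (0.43, SE 0.12, FDR 0.0494).

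Of 9 kinases downstream of MAP kinases, 3 rose and none fell. Mapkapk2, which encodes the main kinase activated by p38, rose by 1.10 on the log2 scale (SE 0.14, edgeR FDR 0.0016), and the ERK-activated kinases Rps6ka1 and Rps6ka3 by 0.96 and 0.63. Of 3 other feedback inhibitors tested, Spry4 fell (-0.55). Of 11 transcription targets of ERK, Myc (0.79), Phlda1 (0.58), Ier2 (0.53) and Elk3 (0.46) rose and Elk4 (-0.53) fell.

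Of 12 p53 targets and growth arrest partners of GADD45, Sesn2 (1.13) and Btg2 (1.06) rose, and Ccnb1 (-1.37), Cdk1 (-1.09) and Pcna (-0.56) fell. Cdk1 and Ccnb1 encode the mitotic kinase and cyclin that GADD45 proteins are known to inhibit, and Pcna the replication clamp that they bind. None of the 6 scaffolds and TAK1 partners passed in either tool, and 1 had an unadjusted p below 0.05, as did 29.2% of all genes. With T-bet alone 8 of the 75 passed, all higher, which is 10.7% against 6.20% of all genes. With T-bet where GATA3 was introduced 6 rose and 3 fell, or 12.0% against 5.77%. With both factors against neither 7 rose and 2 fell, or 12.0% against 4.87%. In edgeR, 0 of the 75 passed for GATA3 alone (2 with an unadjusted p below 0.05, 1 called by DESeq2), for GATA3 added to T-bet (5 and 0), for both GATA3 effects pooled (5 and 1) and for the interaction (1 and 0). Of all genes, 3.70%, 3.78%, 4.96% and 2.58% had an unadjusted p below 0.05 in these contrasts. The lists were made with results of these data known, so these counts are descriptions.

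**Figure D4:**
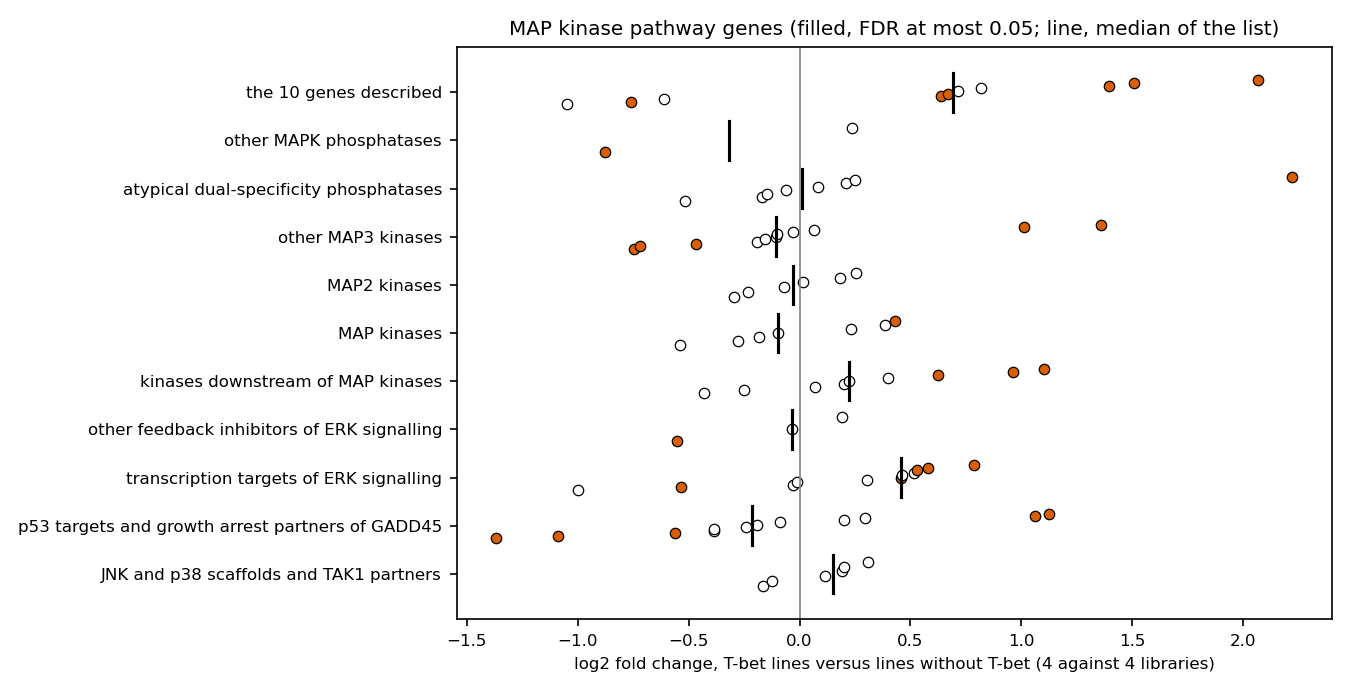
log2 fold change with T-bet over 4 against 4 libraries (x axis) for the tested genes of each list (rows), where filled points passed an FDR of 0.05 and a line marks the median of each list. Dusp2 at 2.07 in the top row and Dusp14 at 2.22 among the atypical phosphatases lie furthest right, and Ccnb1 at -1.37 lies furthest left.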

How the data were processed

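Transcripts had been quantified in 8 EL4 RNA-seq libraries by the authors with FastQC, Trim Galore and kallisto (mm10), against Gencode models whose deposited label is release M18. The methods name a later release, and the legend of the study's expression figure gives 3 biological replicates where 2 libraries per line were analysed here. For each of 136535 transcripts the authors deposited estimated counts, which are unscaled and can hold fractions, and TPM, which are scaled to a common total and depend on transcript length. kallisto splits fragments shared by transcripts, so transcript classes are estimates. Versions of these tools are not given in the sources used here.

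Counts were added up by gene, rounded and tested with edgeR 4.0.16 in R 4.3.3 (TMM, filterByExpr, quasi-likelihood test, 4 residual degrees of freedom, Benjamini-Hochberg over 14791 genes). A single fit covered all 8 libraries, with 4 lines as groups and 8 contrasts. The threshold for a call was an FDR of 0.05. SE is the log2 fold change divided by the square root of F. CPM used TMM-scaled library sizes, which had factors of 0.945 to 1.05, and 3 counts corresponded to 0.188 to 0.373 CPM. This floor covers counting error only. Gene positions are those of Gencode M21 (GRCm38).

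The members, lists and rules were chosen with earlier results of these data known. Named were all 10 genes, Tbx21, Gata3 and Ifng, list genes called in any contrast, and for each called member the 3 protein-coding genes of at least 5 CPM with the highest Pearson correlation of log2 CPM (prior count 2). A simulation held 14791 genes, of which 200 with a mean above 5 CPM were changed by 2 on the log2 scale. In it the test found 97% of changed genes for T-bet + Plum versus GFP + Plum, with 6.3% false calls. For the pooled T-bet contrast it found 99%, with 5.3% false calls. Smaller changes, and changes at lower levels such as that of Dusp1, were not simulated. Replicates of a line differed by a chi-square per degree of freedom of 10.9 to 32.5, so none were copies. Alternatives were DESeq2 1.42.0, library size scaling, transcript length offsets, no filter, at least 10 counts in every library, a replicate block, the libraries of a contrast alone, an added minimum log2 fold change of 1.5, and each library left out. A check of one further marker list is not reported here. Figures were drawn with matplotlib 3.10.9.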

Additional observations from a re-analysis of the deposited data

How the results depend on the processing

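None of the called log2 fold changes, and none of the 10 pooled T-bet values, changed direction under the alternatives run. For the log2 fold changes of single genes, 271 values under alternatives stayed on their side of the FDR threshold, 28 lost their call and 19 gained a call. A lost call did not always come with a smaller log2 fold change. Dusp2 kept its calls in all 4 T-bet contrasts under every alternative run. The median of all genes moved by -0.0851 to 0.0074 (log2) when library size scaling replaced TMM.

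The number of the 10 genes called for T-bet + Plum versus GFP + Plum was 2, and became 4 with DESeq2, 7 without a filter on low counts, 1 with the added log2 limit of 1.5 and 1 to 3 with a library left out. For T-bet + GATA3 versus GFP + Plum it was 2, and became 6 with DESeq2, 8 without a filter, 1 with the libraries of the contrast alone, 1 with the log2 limit and 1 to 3 with a library left out. For T-bet + GATA3 versus GFP + GATA3 it was 3, and became 6 with DESeq2, 8 without a filter and 2 to 4 with a library left out. For the pooled T-bet contrast it was 6, and became 9 with DESeq2, 10 without a filter, 2 with the log2 limit and 3 to 6 with a library left out. Without a filter, 2 were called for GFP + GATA3 versus GFP + Plum and 1 each for GATA3 added to T-bet, the pooled GATA3 contrast and the interaction, where 0 were called otherwise. The cause was not tested. Outside the main fit and the log2 limit, shares of all genes called are not given here. Counts of the 10 under the other settings, the replicate block among them, are therefore not set against a background.

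With the replicate number as a block, 5, 5, 6 and 9 of the 10 were called for T-bet + Plum versus GFP + Plum, T-bet + GATA3 versus GFP + Plum, T-bet + GATA3 versus GFP + GATA3 and the pooled T-bet contrast, and 0 in the others. In the pooled T-bet contrast the block added Gadd45b (edgeR FDR 0.0125), Gadd45g (0.024) and Dusp6 (0.00366). Deviations of same-numbered libraries correlated between lines at -0.05 to 0.30, and the labels do not say that a number marks a shared day, so the numbers are not taken to pair the libraries. Depth limits Dusp1 most, with 10 to 65 counts in each library.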

Other observations

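The genes whose levels followed those of the called members most closely over the 8 libraries are given as a description, since libraries of a line and the presence of T-bet are shared by all points. For Dusp2 these were Nedd9 (Pearson's r = 0.9975 across 8 libraries), which encodes an adhesion docking protein, Ipcef1 (0.9953) and Bhlhe40 (0.9952), a transcription factor known in activated T cells. Ipcef1 stood at 31.8 to 72.3 CPM with T-bet and 0.888 to 3.46 without, and Bhlhe40 at 286.6 to 335.2 and 112.0 to 148.0. For Dusp5 they were Actr3b (0.9885), Gsdmd (0.9871), which encodes the pore-forming protein of pyroptosis, and Mia3 (0.9856). For Dusp4 they were Ralgps2 (0.996), Usp6nl (0.991) and Pcdh10 (0.989). Ralgps2 stood at 28.2 to 36.2 CPM with T-bet and 41.8 to 55.9 without. For Map3k4 they were Bag5 (0.9865), Cyp51 (0.9853) and Ptprj (0.978), for Dusp1 Slain1 (0.9741), Pcmt1 (0.9662) and Tbc1d4 (0.96), and for Gadd45a Myh9 (0.9655), Ccdc88b (0.9619) and Rnf43 (0.9468). There were 8931 candidates for each member.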
